A study of Mus musculus with 4 samples.

Results

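The tripartite motif (Trim) genes were described on 4 microarrays of cultured intestinal tumor organoids from *Apc*-mutant mice. The members were all genes whose symbol in the annotation of the probes begins with Trim and a digit. There were 47 such genes on 49 probes, of 16446 named genes in all, with a pair of probes each for *Trim8* and *Trim34* and 1 probe for every other gene. The organoids came from polyps of ApcMin mice, which carry the multiple intestinal neoplasia mutation of *Apc*, and grew in Matrigel in serum-free medium with EGF and Noggin, so that all 4 cultures share the mutant tumor background. The 5-Aza-CdR comparison set organoids given 1 µM 5-Aza-CdR, a deoxycytidine analog that is built into DNA and traps DNA methyltransferases, against an untreated control, both taken on day 4. The knockdown comparison set organoids infected with a lentivirus carrying an shRNA against *Dnmt1*, the maintenance DNA methyltransferase, against organoids with the empty-vector virus (control shRNA, called Mock control in the labels), both taken on day 9 and selected with puromycin. The question of both comparisons was which genes change when DNA methylation is blocked by a drug or by loss of its enzyme.

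Each condition was measured on 1 array, so there is no replicate error and no test, and a difference between arrays cannot be told apart from the spread between cultures. The number of animals behind each culture is not given in the sources used here. The only error that could be measured was between probes of the same gene, whose log2 ratios had a pooled SD of 0.21 in the 5-Aza-CdR comparison (161 genes) and 0.15 in the knockdown comparison (136 genes). The *Dnmt1* probe read 126 with control shRNA and 71.7 with *Dnmt1* knockdown, so the targeted gene was lower on the array labelled as its knockdown, and it read 239 in the untreated control and 368 with 5-Aza-CdR. The epithelial markers *Tacstd1* (an older symbol of Epcam), *Cdh1* and *Vil1* were well above background on all 4 arrays, with intensities from 407 to 7627, whereas *Krt19* read 3.11 to 6.71. Of 9 immune cell markers, *Cd3g* and *Itgam* were empty on all 4 arrays and the pan-leukocyte marker *Ptprc* read 2.41 to 4.84, while the summed intensity of the list was 429 in the untreated control, 562 with 5-Aza-CdR, 383 with control shRNA and 343 with *Dnmt1* knockdown, nearly all of it from *Cd14*, *Cd68* and *Csf1r*. The part of such cells in the values of the Trim genes was not tested, and in bulk RNA fewer cells of a type and less RNA per cell cannot be told apart.

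Most Trim proteins have a RING domain, B-boxes and a coiled coil, and act as ubiquitin ligases. One branch of the family is induced by interferon and takes part in antiviral defense, by sensing viruses in the cytosol or by tuning the signals that nucleic acid sensors send. Another branch, the TIF1 proteins with *Trim28* as the best-known member, acts on chromatin, and *Trim28* is recruited by KRAB zinc finger proteins to endogenous retroviruses, where it brings the histone methyltransferase *Setdb1*. Endogenous retroviruses are also kept silent by DNA methylation, and their transcripts can trigger interferon responses when methylation is lost.

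Values are given as the deposited intensity, which the authors scaled to a median of 25 on every array, and as a log2 ratio of each array to its own control after background correction (normexp with an offset of 50) and quantile normalization. Adding an offset brings ratios between dim spots closer to 0, so the log2 ratio of the deposited values is given beside it where both differ much. A call of higher or lower required a ratio of at least 2-fold and a brighter array above detection, meaning above the mean of the blank spots plus 2 SD. By that limit 41 Trim genes were detected on all 4 arrays. *Trim9*, *Trim42*, *Trim54*, *Trim61* and *Trim66* passed on the 5-Aza-CdR array only, with intensities of 0.64 to 1.43, and *Trim67* was empty on all 4. These 5 values lie under 1.90, the level that 95% of the spots without a probe stayed below on that array. The same level was 2.42 for the untreated control, 3.37 for control shRNA and 4.48 for *Dnmt1* knockdown, and 30 Trim genes were above it on all 4 arrays.

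**Figure D1:**
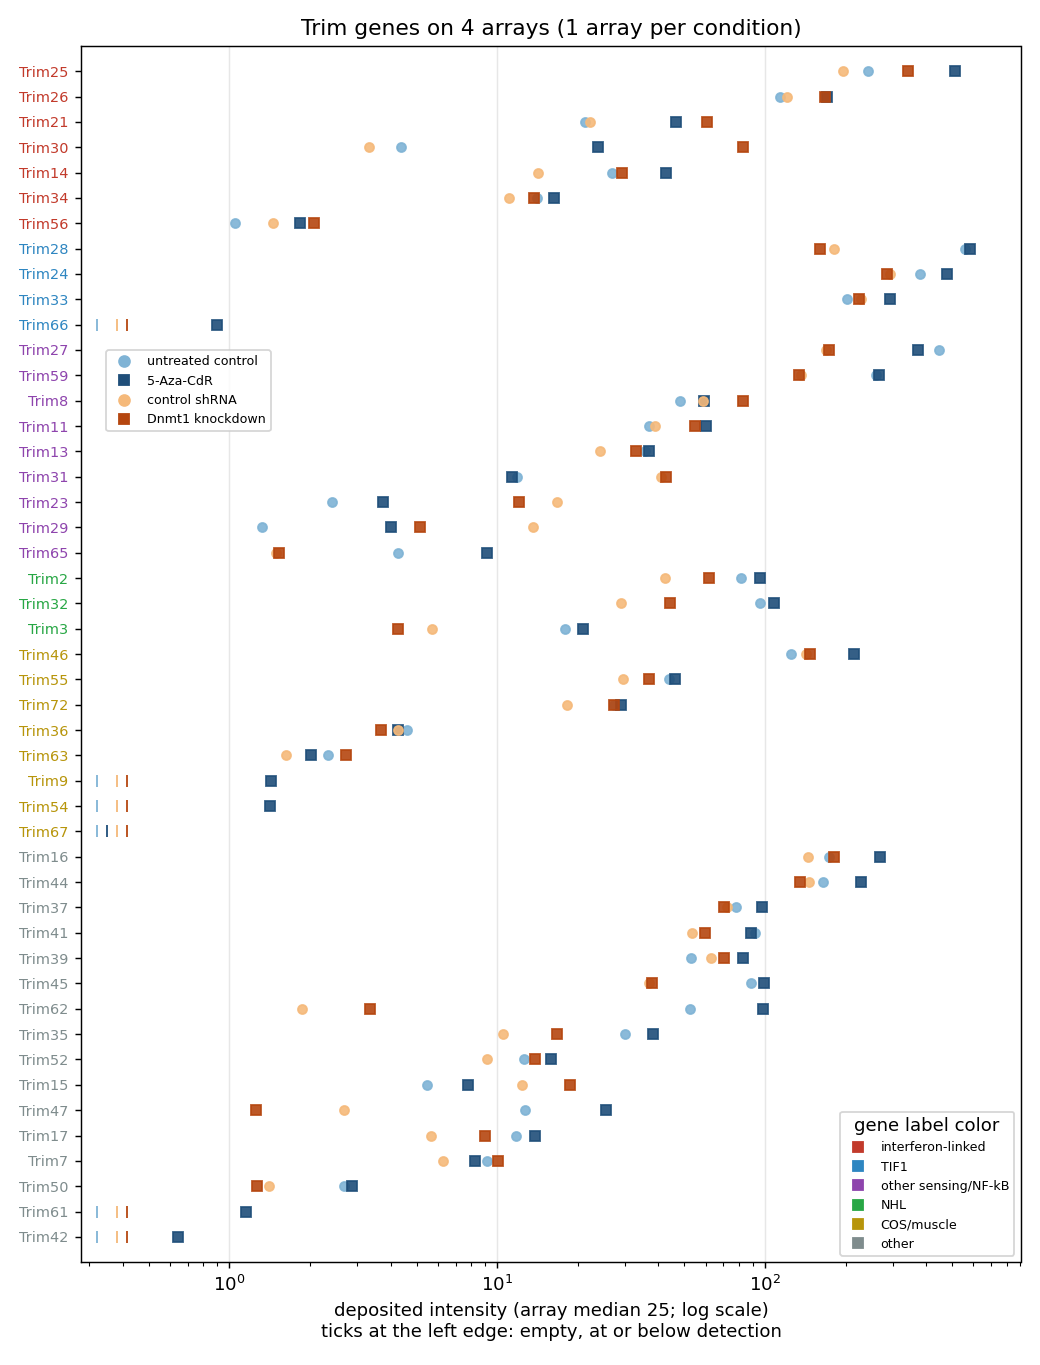
Deposited intensity (log scale, array median 25) of each Trim gene on the untreated control, 5-Aza-CdR, control shRNA and *Dnmt1* knockdown arrays, 1 point per array and no error bars because each condition has 1 array; gene labels are colored by role, and ticks at the left edge mark arrays on which the spot was empty. *Trim30* runs from 3.33 with control shRNA to 82.7 with *Dnmt1* knockdown, with both treated arrays right of both controls, whereas *Trim28* lies near 560 on the 2 day 4 arrays and at 181 and 160 on the 2 day 9 arrays.

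On the deposited scale both treated arrays were above both control arrays for 6 of the 7 interferon-linked genes (all but *Trim34*), or 5 of 6 without *Trim56*, which was no brighter than spots without a probe on any array. The same held for 12 of the 41 Trim genes detected on all 4 arrays (29.3%), *Trim56* included, and for 16.7% of all 13456 such genes. The reverse, both treated arrays below both controls, held for 0 Trim genes and 2.3% of all genes. *Trim30*, an interferon-induced mouse gene known to restrain Toll-like receptor signaling to NF-kB, read 4.39 in the untreated control, 23.8 with 5-Aza-CdR, 3.33 with control shRNA and 82.7 with *Dnmt1* knockdown. Each treated value was several times its own control, and the control shRNA value was no higher than that of spots without a probe. *Trim30* was 3.22-fold higher with *Dnmt1* knockdown (log2 ratio 1.68) and 1.38-fold higher with 5-Aza-CdR (log2 ratio 0.46). On the deposited scale, where no offset shrinks dim values, the ratios were 24.8-fold and 5.41-fold. *Trim30* was thereby the 1 member called with the corrected values, in the knockdown comparison, and its fold there depends on how the dim control spot is treated.

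*Trim21*, a cytosolic receptor for antibody-coated viruses, read 21.3 in the untreated control, 46.7 with 5-Aza-CdR, 22.3 with control shRNA and 60.6 with *Dnmt1* knockdown. Its controls lay close together and both treated arrays were above them. The log2 ratios were 0.39 for the drug and 0.72 for the knockdown (1.13 and 1.44 on the deposited scale). *Trim25*, the ubiquitin ligase that activates the RNA sensor RIG-I, read 242 in the untreated control, 513 with 5-Aza-CdR, 195 with control shRNA and 342 with *Dnmt1* knockdown. This gene is bright on all 4 arrays, and its ratios moved less with the processing than those of *Trim30*. They were 0.82 with 5-Aza-CdR, the highest of any Trim gene in that comparison, and 0.66 with *Dnmt1* knockdown (1.09 and 0.81 on the deposited scale).

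*Trim14*, a mitochondrial adaptor of the RNA sensing pathway that lacks a RING domain, read 26.9 in the untreated control, 42.8 with 5-Aza-CdR, 14.2 with control shRNA and 29.3 with *Dnmt1* knockdown. The knockdown array was above its own control but barely above the untreated control. Its log2 ratios were 0.20 and 0.36 (0.67 and 1.05 on the deposited scale). *Trim26*, a ligase that acts on antiviral signaling, read 114, 170, 121 and 167 in the order untreated control, 5-Aza-CdR, control shRNA and *Dnmt1* knockdown, with log2 ratios of 0.28 and 0.32. On the deposited scale both treated arrays of *Trim26* were above both controls. With the corrected values this order did not hold. There control shRNA was above the untreated control at a log2 ratio of 0.42, more than the 0.28 of 5-Aza-CdR.

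*Trim34*, an interferon-induced relative of the retroviral restriction factor TRIM5 of primates, had a pair of probes that differed. The brighter one read 14.1, 16.3, 11.04 and 13.7 in the same order, with log2 ratios of 0.01 and 0.02. The dimmer one read 0.97 in the untreated control, 3.84 with 5-Aza-CdR and 5.20 with the knockdown, and was empty with control shRNA, which on the deposited scale is a log2 ratio of 1.99 with 5-Aza-CdR and at least 5.06-fold with *Dnmt1* knockdown against the detection limit. With the offset the ratios of that probe were 0.09 and 0.12, and which of the probes follows *Trim34* was not tested. *Trim56*, a ligase linked to sensing of cytosolic DNA, read 1.05, 1.83, 1.46 and 2.07, below the level of spots without a probe on every array, so its ratios of 0.01 and -0.01 carry no information on its direction.

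Over these 7 genes 5-Aza-CdR gave a median log2 ratio of 0.28, with 7 of 7 above 0, and *Dnmt1* knockdown one of 0.36, with 6 of 7 above 0. Without *Trim56*, whose values are at background, 6 of 6 were above 0 in each comparison and the medians were 0.34 and 0.51. The median of all detected genes was -0.0055 and -0.0048. On the deposited scale the medians of the 7 were 0.80 and 0.81, against 0.17 and 0.19 over all detected genes. With each array scaled to its median or its 75th percentile instead, 5 of 7 were above 0 with 5-Aza-CdR, the exceptions being *Trim34* and *Trim56*.

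The start regions of these genes were read for the interferon-stimulated response element, the site that interferon-activated transcription factors bind, in its core form, the letters GAAA, any 2 bases and GAAA again, on either strand. The windows, from RefSeq on build GRCm38.p6, run from 250 bases before to 50 after the annotated start, and 34 of the 47 Trim genes matched one, *Trim30* and *Trim34* under their current symbols Trim30a and Trim34a. The core was present in 4 of the 6 interferon-linked genes with a window (*Trim21*, *Trim26*, Trim30a and Trim34a), in 1 of 2 genes of the NHL group (*Trim2*) and in none of 3 TIF1, 5 other sensing, 6 COS box and 12 remaining genes. That is 5 of 34 Trim genes, and the core occurs in 3.99% of all 27025 RefSeq genes with a window. By window it was in 12.8% of the 47 Trim windows and 3.44% of all windows. The longer form with 3 such GAAA blocks, which contains overlapping copies of the core, was found in *Trim21* and *Trim26* only, 4.26% of Trim windows against 0.116% of all. The gamma-activated site core TTCNNNGAA was in 10.6% of Trim windows and 8.3% of all, and in none of the interferon-linked ones. Shown first is 1 window with the core for each of the 4 interferon-linked genes that have it. These members had ratios above 0 in both comparisons, though only *Trim30* was called, and *Trim34* has probes that differ. Another Trim30a window with the core and the *Trim2* window with it are not printed. *Trim25* and *Trim28* follow as a bright interferon-linked member and the main chromatin member, both without it. Each is printed from 5′ to 3′ on the strand of its gene, with the letters of the core or its reverse complement in capitals.
Trim30a, chr7:104465144-104465443, minus strand: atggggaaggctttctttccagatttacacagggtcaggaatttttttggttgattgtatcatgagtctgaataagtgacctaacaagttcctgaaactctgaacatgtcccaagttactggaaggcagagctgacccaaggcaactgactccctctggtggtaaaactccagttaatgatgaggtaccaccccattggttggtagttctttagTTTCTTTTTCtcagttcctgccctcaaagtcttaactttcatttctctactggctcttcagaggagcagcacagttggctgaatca
Trim21, chr7:102565433-102565732, minus strand: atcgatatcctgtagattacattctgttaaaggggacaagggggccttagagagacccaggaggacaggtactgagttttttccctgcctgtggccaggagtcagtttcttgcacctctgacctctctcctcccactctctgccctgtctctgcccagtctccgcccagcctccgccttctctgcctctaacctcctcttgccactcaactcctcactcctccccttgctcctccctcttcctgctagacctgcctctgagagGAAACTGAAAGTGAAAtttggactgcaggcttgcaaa
Trim34a, chr7:104244207-104244506, plus strand: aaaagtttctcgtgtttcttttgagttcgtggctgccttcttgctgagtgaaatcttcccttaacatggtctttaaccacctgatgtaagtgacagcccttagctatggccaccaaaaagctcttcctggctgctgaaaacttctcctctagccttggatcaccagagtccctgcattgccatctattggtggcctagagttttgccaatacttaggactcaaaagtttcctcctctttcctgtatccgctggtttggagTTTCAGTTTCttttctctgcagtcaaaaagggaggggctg
Trim26, chr17:36836896-36837195, plus strand: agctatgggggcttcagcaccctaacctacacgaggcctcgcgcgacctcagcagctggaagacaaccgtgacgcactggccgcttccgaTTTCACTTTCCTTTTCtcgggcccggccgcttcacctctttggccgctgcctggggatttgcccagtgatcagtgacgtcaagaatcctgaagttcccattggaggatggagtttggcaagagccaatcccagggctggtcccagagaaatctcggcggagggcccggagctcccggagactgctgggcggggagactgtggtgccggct
Trim25, chr11:88999153-88999452, plus strand: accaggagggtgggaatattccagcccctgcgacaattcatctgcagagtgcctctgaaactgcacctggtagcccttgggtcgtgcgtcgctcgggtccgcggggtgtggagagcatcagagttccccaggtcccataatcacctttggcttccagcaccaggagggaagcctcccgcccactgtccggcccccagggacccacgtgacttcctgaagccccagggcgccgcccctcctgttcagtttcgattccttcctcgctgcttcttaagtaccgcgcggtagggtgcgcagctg
Trim28, chr7:13023902-13024201, plus strand: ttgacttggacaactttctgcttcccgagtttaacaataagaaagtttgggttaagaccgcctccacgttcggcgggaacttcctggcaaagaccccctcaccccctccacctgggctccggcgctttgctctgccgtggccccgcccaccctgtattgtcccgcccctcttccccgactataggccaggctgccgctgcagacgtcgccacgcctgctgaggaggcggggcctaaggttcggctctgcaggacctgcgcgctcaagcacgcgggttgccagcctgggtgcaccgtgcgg

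In the Trim30a window shown the match began 36 bases before the start, and in Trim34a 10 bases after it. In *Trim21* the overlapping matches began 13 and 19 bases after the start. In *Trim26* they began 160 and 154 bases before the start. A match of letters is a description and not a measured binding site. The windows also differ in CpG dinucleotides, the base pairs that DNA methylation acts on. The Trim30a window shown holds 0 of them, as 5.43% of all windows do, and *Trim21* and Trim34a hold 3 each, whereas *Trim25* holds 18, *Trim26* 19 and *Trim28* 23. The median over all windows was 7 and over the Trim windows 13. Methylation of these sites was not measured on the arrays.

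Across the whole family few members passed the fold limit. With 5-Aza-CdR, 0 of 46 detected Trim genes were called higher and 0 lower, where 0.927% of all 15640 detected genes were higher and 0.607% lower. With *Dnmt1* knockdown, 1 of 41 was called higher (*Trim30*) and 0 lower, where 0.327% of 14393 genes were higher and 0.139% lower. At these rates fewer than 1 member would be called by the background alone, and the count of 1 gives no excess to read. On the deposited scale 6 of 46 were higher with 5-Aza-CdR (*Trim21*, *Trim25*, *Trim29*, *Trim30*, *Trim47* and *Trim65*, 13.0%) and 0 lower, beside 6.17% higher and 2.09% lower over all genes. With *Dnmt1* knockdown 3 of 41 were higher on that scale (*Trim14*, *Trim21* and *Trim30*, 7.32%) and 2 lower (*Trim29* and *Trim47*, 4.88%, the latter from values at background), beside 5.91% and 0.813%. *Trim21* and *Trim30* were the 2 members higher by 2-fold in both comparisons on the deposited scale, and with the corrected values there were 0. With the corrected values 27 of all 16446 named genes were higher in both, so 0 members gives nothing to read. The overlap over all genes was not counted on the deposited scale, so the 2 members have no share beside them. The median log2 ratio of the family was 0.02 in each comparison, close to that of all genes.

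**Figure D2:**
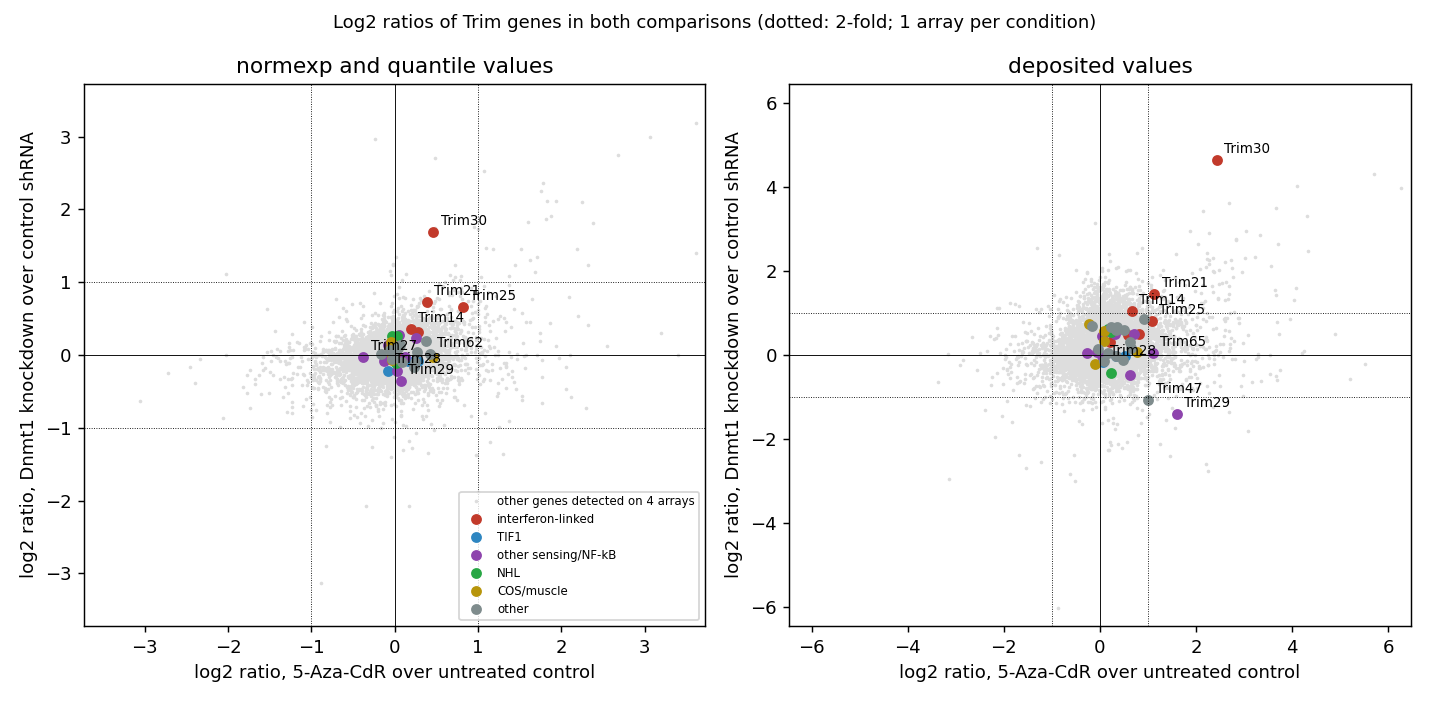
Log2 ratio with *Dnmt1* knockdown (vertical axis) against that with 5-Aza-CdR (horizontal axis), each against its own control, for Trim genes (large points, colored by role) and all other genes detected on 4 arrays (grey), after normexp and quantile normalization (left) and from the deposited values (right), with dotted lines at 2-fold. *Trim30* lies at 0.46 and 1.68 on the left and at 2.44 and 4.63 on the right, and *Trim28* stays near 0 in both panels.

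*Trim28* and the other TIF1 genes were not called in either comparison. *Trim28*, the corepressor of endogenous retroviruses, read 560 in the untreated control, 585 with 5-Aza-CdR, 181 with control shRNA and 160 with *Dnmt1* knockdown. Each treated array was near its own control, while the 2 pairs of arrays differed from each other. The log2 ratio of *Trim28* was -0.08 with 5-Aza-CdR, but 0.06 on the deposited scale. It was 0.34 with median scaling and 0.42 with local background subtracted, so its direction with the drug is not set. With *Dnmt1* knockdown it was -0.21, where the alternative settings gave -0.26 to -0.18 and subtraction of local background -0.15. Among these settings the mean over probes and detection on both arrays could not move *Trim28*, which has 1 probe and was detected on all 4 arrays. *Trim24*, a cofactor of nuclear receptors, read 379, 476, 292 and 287 in the order untreated control, 5-Aza-CdR, control shRNA and *Dnmt1* knockdown, with log2 ratios of 0.16 and -0.09. *Trim33*, which acts in TGF-beta signaling, read 203, 293, 228 and 224, with ratios of 0.28 and -0.08. All 3 were slightly below 0 in the knockdown comparison, by less than 2 probe SDs, although with local background subtracted *Trim24* was at -0.78 and *Trim33* at -0.36. *Trim66*, the remaining TIF1 gene, was seen on the 5-Aza-CdR array only, at 0.90. The TIF1 median was 0.08 with 5-Aza-CdR and -0.09 with the knockdown. With 5-Aza-CdR it came close to that of the interferon-linked genes under median scaling (0.46 against 0.47) and 75th percentile scaling (0.12 against 0.13), and *Trim33* was at the interferon-linked median in the corrected values, so for the drug the lists are not set apart. With the knockdown the TIF1 median was below 0 under these settings (-0.15 and -0.13) and the interferon-linked one above it (0.29 and 0.32).

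Genes for proteins that work with *Trim28* were likewise under the fold limit. Of 10 measured, 0 were called in either comparison. Over all detected genes 0.927% were higher and 0.607% lower with 5-Aza-CdR, and 0.327% and 0.139% with *Dnmt1* knockdown. At these shares 0 of 10 gives nothing to read. The medians were 0.10 for the drug, with 7 of 10 above 0, and -0.08 for the knockdown, with 4 of 10 above 0. *Setdb1*, the methyltransferase it recruits, had log2 ratios of 0.18 and 0.01. *Cbx3*, which encodes a heterochromatin protein 1 that *Trim28* binds, was lower in both, at -0.45 and -0.52. The other heterochromatin protein 1 genes, *Cbx1* (0.12 and -0.03) and *Cbx5* (0.15 and -0.12), were slightly above 0 with the drug and slightly below with the knockdown. *Chd3*, a subunit of the NuRD complex, was at 0.62 with 5-Aza-CdR and -0.19 with *Dnmt1* knockdown.

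**Figure D3:**
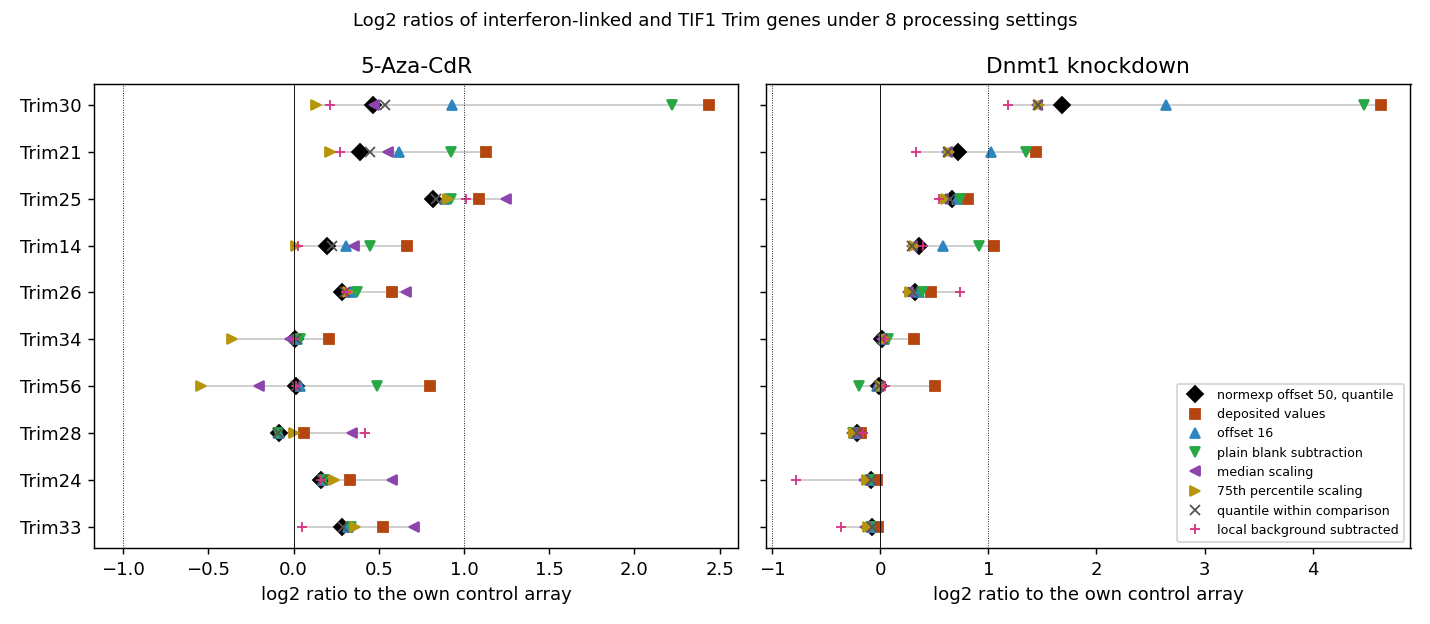
Log2 ratio to the own control (horizontal axis) of the 7 interferon-linked and 3 TIF1 Trim genes detected on 4 arrays, with 5-Aza-CdR (left) and *Dnmt1* knockdown (right), under 8 ways of processing the same arrays, 1 symbol each, with dotted lines at 2-fold. *Trim30* spans 0.13 to 2.44 on the left and 1.18 to 4.63 on the right, *Trim25* stays right of 0 in every setting, and *Trim28* lies on both sides of 0 on the left.

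Of 8 measured genes of interferon signaling and the sensing pathway in which *Trim25* acts, 5-Aza-CdR left 3 called higher and *Dnmt1* knockdown 4, among them *Irf7*, the interferon regulatory factor that amplifies the response, at log2 ratios of 1.87 and 1.91. *Ddx58*, which encodes the RIG-I sensor that *Trim25* modifies, read 188 in the untreated control, 328 with 5-Aza-CdR, 70.2 with control shRNA and 179 with *Dnmt1* knockdown. Its log2 ratios of 0.53 and 0.97 stayed under the limit, as did those of *Trim25*. The kinases *Tbk1* (0.06 and 0.17) and *Ikbke* (0.44 and 0.20) and the transcription factor *Irf3* (0.32 and -0.11), which act downstream of the sensor, were not called in either comparison. *Ifih1*, which encodes the sensor MDA5 that *Trim65* modifies, was at 1.18 and 1.45. *Trim65* itself read 4.26, 9.15, 1.49 and 1.53 in the order untreated control, 5-Aza-CdR, control shRNA and *Dnmt1* knockdown, with log2 ratios of 0.12 and -0.03. Its 2 day 9 values are no higher than spots without a probe, so its knockdown ratio says little.

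The 9 other Trim genes with roles in innate sensing and NF-kB signaling had medians of 0.03 and -0.03, and none was called with the corrected values. *Trim27*, a ligase that acts in endosomal sorting, read 448 in the untreated control, 374 with 5-Aza-CdR, 169 with control shRNA and 173 with *Dnmt1* knockdown. Its log2 ratio of -0.38 with 5-Aza-CdR was the lowest of the family in that comparison, though it was -0.02 when the local background of each spot was subtracted, and it was -0.03 with *Dnmt1* knockdown. *Trim29*, a gene of stratified epithelia that lacks a RING domain, read 1.32, 4.0, 13.6 and 5.14 in the same order. The drug-treated array was thus above its control and the knockdown array below its own, at log2 ratios of 0.08 and -0.36 (1.60 and -1.41 on the deposited scale), and the untreated value is below that of spots without a probe. *Trim11* read 36.9, 60.0, 38.8 and 55.0, with ratios of 0.25 and 0.23. *Trim8*, a ligase that promotes NF-kB signaling, had ratios of 0.06 and 0.27, and its other probe -0.08 and 0.11.

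*Trim23*, an unusual member that carries a GTPase domain, read 2.41, 3.74, 16.7 and 12.0 in the order untreated control, 5-Aza-CdR, control shRNA and *Dnmt1* knockdown, with log2 ratios of 0.03 and -0.22. *Trim31*, a ligase expressed in the gut, read 11.9, 11.4, 40.9 and 42.8. For both genes the 2 culture pairs stood further apart than either treatment from its control. The ratios of *Trim31* were -0.05 and -0.04. *Trim13*, anchored in the endoplasmic reticulum, read 35.7, 36.8, 24.2 and 33.1, and *Trim59*, a membrane-anchored member, read 259, 267, 136 and 133. The treated and control values of *Trim59* were close within each pair, with a log2 ratio of -0.09 for the knockdown.

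The 3 NHL genes, whose products end in a propeller domain that can bind RNA, stayed within 0.04 of 0 with 5-Aza-CdR in the corrected values. This depends on the processing. With median scaling *Trim2* was at 0.33 and *Trim32* at 0.29. With 75th percentile scaling *Trim3* was at -0.31, where the median of all genes was -0.34. *Trim2*, a ligase of neurofilaments, read 81.1 in the untreated control, 95.7 with 5-Aza-CdR, 42.3 with control shRNA and 61.6 with *Dnmt1* knockdown, and *Trim32*, mutated in a human limb-girdle muscular dystrophy, read 96.0, 108, 29.0 and 44.3. With *Dnmt1* knockdown both were at a log2 ratio of 0.26, while *Trim3* was at -0.11. When local background was subtracted *Trim2* and *Trim32* turned to -0.15 and -0.19, so their direction depends on it.

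Of 8 genes of the COS box and muscle group, which includes genes for proteins that bind microtubules or the sarcomere, 5 were detected on all 4 arrays. *Trim46*, which organizes microtubules in axons, read 125, 214, 142 and 148 in the order untreated control, 5-Aza-CdR, control shRNA and *Dnmt1* knockdown. On the deposited scale its drug-treated array stood above the other 3. This order was lost in the corrected values. There the drug gave a log2 ratio of 0.46, while control shRNA was above the untreated control at a log2 ratio of 0.51. The knockdown ratio of *Trim46* was -0.02. *Trim55*, a muscle ring finger gene, was at -0.06 and 0.09, and *Trim72*, a membrane repair gene of muscle, at -0.05 and 0.17. Of 7 markers of muscle, the myosins *Myh1* and *Myh6* were empty or at most 0.87 on every array, while the actin gene *Acta1* read 16.9, 13.4, 193.5 and 177 and the myoglobin gene *Mb* 25.2, 62.3, 39.2 and 51.3. The summed intensity of the list was 51.2, 87.5, 236 and 234 in the same order, and its part in the values of the muscle Trim genes was not tested.

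The 16 remaining genes had medians of 0.04 and 0.03, and none was called with the corrected values. *Trim16*, which takes part in the response to damaged membranes, read 174, 269, 145 and 180 in the order untreated control, 5-Aza-CdR, control shRNA and *Dnmt1* knockdown, with log2 ratios of 0.37 and 0.19. *Trim44* read 165, 229, 146 and 135, with ratios of 0.23 and -0.16. *Trim37*, mutated in the human growth disorder mulibrey nanism, and *Trim41* stayed within 0.17 of 0 in both comparisons. With local background subtracted, however, *Trim41* with 5-Aza-CdR turned from -0.17 to 0.61, and with the knockdown *Trim44* turned from -0.16 to 0.14 and *Trim46* from -0.02 to 0.44. *Trim47* read 12.7, 25.5, 2.67 and 1.26, with log2 ratios of 0.24 and -0.09 (1.01 and -1.08 on the deposited scale). Its 2 day 9 values were below those of spots without a probe, so no direction can be read from its knockdown ratio.

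The 2 control cultures, which differ in day, virus and drug selection, also differed from each other in some Trim genes. *Trim62*, a ligase linked to epithelial polarity, read 52.3 in the untreated control and 98.3 with 5-Aza-CdR but 1.86 with control shRNA and 3.34 with *Dnmt1* knockdown. The untreated control was 28.1-fold above control shRNA on the deposited scale, and the 2 day 9 arrays were at background. Its log2 ratio with 5-Aza-CdR was 0.42. *Trim28* was 3.09-fold brighter in the untreated control than with control shRNA on the deposited scale. With the corrected values *Trim28* and *Trim62* were the 2 members at least 2-fold lower with control shRNA, at log2 ratios of -1.03 and -1.10, and 0 of 41 were higher, while 3.79% of all 15141 detected genes were higher and 3.84% lower, so that the count of 2 is near the background. On the deposited scale 4 Trim genes were higher and 10 lower with control shRNA, beside 7.12% and 26.6% of all genes. For the 7 interferon-linked genes the median log2 ratio between the control cultures was 0.05, with a range of -0.20 to 0.42. Day, virus and drug selection cannot be told apart here.

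**Figure D4:**
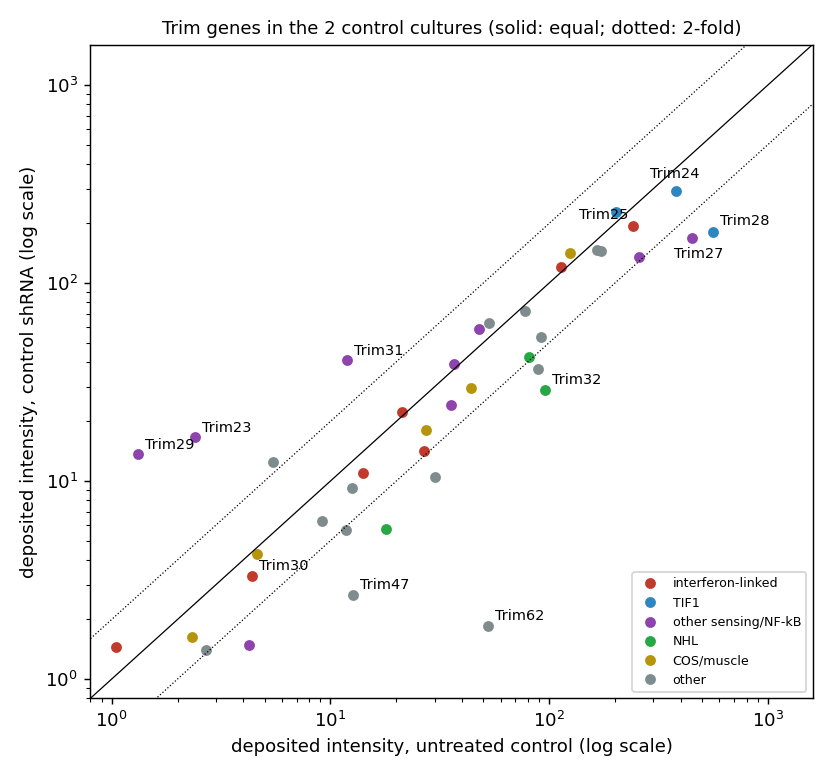
Deposited intensity with control shRNA (vertical axis) against the untreated control (horizontal axis), both on log scales, for the 41 Trim genes detected on all 4 arrays, colored by role, with a solid line at equal values and dotted lines at 2-fold. *Trim62* (52.3 and 1.86) and *Trim28* (560 and 181) lie below the lower dotted line and *Trim29* (1.32 and 13.6) above the upper one.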

How the data were processed

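Total RNA of 4 cultures was hybridized, 1 culture per array, to 1-color Toray 3D-Gene arrays labeled with Cy5. The deposited values are intensities: the authors subtracted a trimmed mean of the blank spots from each spot, scaled each array to a median of 25 and left spots at or below the blank mean plus 2 SD empty, as recomputed here from the scanner signals and matched within 1% for 100% of spots. The RNA kit differs between the labels and the methods. The scanner intensities as deposited were corrected with normexp (offset 50, without local background) and quantile normalized over the 4 arrays in limma 3.58.1 (R 4.3.3), and floored at detection. A gene with several probes was read from the brightest. No test was possible with 1 array per condition, and a call needs 2-fold and detection on the brighter array. Tables were handled in Python 3.11.15 with pandas 2.3.3. The normalization was checked on simulated data in which changes were put only into spots well above the blanks, so the check did not cover dim spots.

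Genes were named from GEO's platform annotation, which can be old. The members, the role lists, the pathway lists and the promoter motifs were chosen with earlier results of these data known. The text names *Trim30*, *Trim28*, called genes, the 5 highest and 5 lowest log2 ratios of each comparison, bright members and up to 2 genes of each list. *Trim31*, *Trim47*, *Trim65* and the single genes of the pathway and marker lists were named, and *Trim56* left out of its list as an alternative, after their values were seen. Settings tried beside these were the values as deposited, a smaller offset (16), plain subtraction, scaling to the median or 75th percentile, quantile normalization within a comparison, detection on both arrays, the mean over probes, limits of 1.5-fold and 3-fold, and, added after seeing the data, subtraction of local background.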

Additional observations from a re-analysis of the deposited data

How the results depend on the processing

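The counts of called Trim genes were small and moved with the background correction. With 5-Aza-CdR the count of higher genes, 0 after normexp with an offset of 50, was 6 with the deposited values, 2 with plain blank subtraction (*Trim29* and *Trim30*), and 1 with median scaling, with a 1.5-fold limit and with local background subtracted, *Trim25* each time. With *Dnmt1* knockdown the count of higher genes, 1 at first, was 3 with the deposited values, 2 with an offset of 16 and with plain subtraction, and 3 with a 1.5-fold limit, and the count of lower genes, 0 at first, was 2 with the deposited values and with plain subtraction. *Trim30* was called with *Dnmt1* knockdown in every setting run. The median of the family, 0.02 in each comparison, became 0.34 (5-Aza-CdR) and 0.31 (knockdown) on the deposited scale, where the median of all genes was 0.17 and 0.19, and -0.23 with 5-Aza-CdR under 75th percentile scaling, where that of all genes was -0.34. Over all genes the split of higher and lower calls with 5-Aza-CdR was 145 to 95, and 344 to 52 with median scaling. With *Dnmt1* knockdown it was 47 to 20, and 340 to 392 with plain subtraction and 181 to 334 with local background subtracted. No paired analysis was possible because each condition has 1 array. Dim spots limit the ratios, since a gene near its array's blank spots has only a bound on its fold, and the probes of *Trim30* and *Trim34* may also bind transcripts of their close paralogs.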

Other observations

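A few genes of the family stand on the array under other or older symbols and were outside the 47 members. Those under older symbols were looked up after the values were seen, and *Pml* and *Mid2* were on a list made with earlier results of these data known. *Pml*, an interferon-induced Trim gene that forms nuclear bodies, read 19.3 in the untreated control, 42.3 with 5-Aza-CdR, 13.4 with control shRNA and 25.3 with *Dnmt1* knockdown. On this deposited scale both treated arrays were above both controls, and the log2 ratios of *Pml* were 0.36 and 0.28. Trim12c, a neighbor of Trim30a on chromosome 7 that was listed as 9230105E10Rik, read 7.06, 17.3, 11.3 and 29.2 in the same order, again with both treated arrays above both controls on the deposited scale. Its log2 ratios were 0.24 and 0.45, and 1.29 and 1.36 on the deposited scale, and its start region holds the response element core, beginning 29 bases before the start. Trim30b, a paralog of *Trim30* listed as A530023O14Rik, read 2.68, 2.24, empty and 1.64. Its day 4 values were close to the level of spots without a probe (2.42 and 1.90). Its *Dnmt1* knockdown value was below that level (4.48), so no direction can be read for this gene. Trim69, listed as Rnf36, read 19.2, 25.2, 13.85 and 18.7, at log2 ratios of 0.07 and 0.08, and its *Dnmt1* knockdown array was below the untreated control. *Mid2*, a microtubule-binding relative, read 106, 117, 64.7 and 55.9, at log2 ratios of -0.06 and -0.23.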
